A study of Mus musculus with 9 samples.

Results

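Tubule injury markers are genes that a kidney tubule raises when it is damaged and whose products are read in tissue or urine as signs of that damage. The 8 markers described here are Havcr1, Lcn2, Spp1, Clu, Anxa1, Anxa2, Lgals3 and Gdf15. They were taken by symbol from a table of 31167 genes, and each had 1 row with a value in all 9 libraries. RNA sequencing was carried out on primary renal tubular epithelial cells of C57BL/6 mouse kidney, with 3 libraries in each of 3 groups. The labels name no treatment or plasmid for the Sham cells. The H/R cells were held without glucose for 6 h at 1.0% oxygen and were then returned to complete medium and normal oxygen for 18 h, a culture model of ischemia and reperfusion. The EGR1OV cells were transfected at about 50% confluence, using EndoFectin Max, with a plasmid that overexpresses Egr1, an immediate early zinc finger transcription factor, from the CMV promoter. The group label of these cells names no H/R. The study's general methods place transfection before H/R, while its account of the sequenced groups names H/R and the plasmid as alternatives, so whether the EGR1OV cells also went through H/R is not certain. No empty-plasmid library was among the 9, so the effects of Egr1 and of transfection cannot be told apart. Both comparisons with Sham use the same 3 Sham libraries. The age of the mice and whether the 3 libraries of a group came from separate mice or cultures are not given in the sources used here, so the p-values measure the spread between these libraries, which may be technical.

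The injured tubule cell loses its brush border and transporters, takes on features of a less differentiated cell and starts to secrete and display proteins that a resting tubule hardly makes. Havcr1 encodes KIM-1, a surface receptor for phosphatidylserine that lets a tubule cell engulf its dead neighbours. Lcn2 encodes NGAL, a secreted carrier of iron-binding siderophores that is measured in urine as an early sign of injury. Spp1 encodes osteopontin, a secreted ligand of integrins and of CD44, and Clu encodes clusterin, a secreted chaperone. Anxa1 and Anxa2 encode annexins, proteins that bind membrane phospholipids when calcium rises, and Anxa1 also acts outside the cell on formyl peptide receptors to damp inflammation. Lgals3 encodes galectin-3, a lectin that binds beta-galactosides, and Gdf15 encodes a stress-induced cytokine of the TGF-beta superfamily.

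The values are FPKM, fragments scaled to transcript length and sequencing depth, a scale meant for comparing levels between genes and between libraries. It does not correct for differences in RNA composition between libraries, and the balance of higher and lower calls changed with other scalings, as given at the end. Depth, worked back from the steps between low FPKM values, lay between 16183614 and 18384021 reads, so the deepest library had 1.14 times the reads of the shallowest. Egr1 itself was at 6.20, 6.91 and 6.09 FPKM in Sham. Its values were 8.57, 7.59 and 7.48 after H/R, and 45.7, 42.2 and 40.1 after transfection. Reads of the plasmid and of the cells' own gene cannot be told apart in that value. The small RNA gene Gm23935 differed between libraries of the same group, from 1697 to 19553 FPKM within Sham, from 3802 to 21700 within H/R and from 1494 to 9378 within EGR1OV. Leaving out each library in turn changed the call of 1 marker in 1 comparison, described below. General epithelial genes such as Epcam, Cdh1, Krt8, Krt18 and Pax8 were present in every library, whereas 8 of 11 proximal tubule markers had a mean under 0.5 FPKM, with Slc22a6 at 0 in all 9 libraries and Slc34a1 at 0 in 6. All 8 distal nephron and collecting duct markers were under 0.5 FPKM as well, while the kidney epithelial genes Pax2 and Cdh16 were present in every library.

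All 8 markers are protein-coding genes. The positions in the table were Havcr1 at chr11:46735080-46779578, Lcn2 at chr2:32384633-32388252, Spp1 at chr5:104435118-104441050, Clu at chr14:65968483-65981547, Anxa1 at chr19:20373428-20390944, Anxa2 at chr9:69453620-69491795, Lgals3 at chr14:47367751-47386160 and Gdf15 at chr8:70629393-70632456. All are equal to the gene bounds of GENCODE M21 on GRCm38, although the submitters' processing notes name mm9. Lcn2, Anxa1 and Gdf15 lie on the minus strand and the others on the plus strand. The annotation puts Gm42793 within Spp1, Gm16144 and Mir3109 within Anxa2 and 1500015L24Rik across Anxa1. Their highest FPKM were 0.777, 1.64, 1.40 and 0.386, and whether reads were counted by strand is not given in the sources used here.

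The stretches before the start of transcription are shown for 3 markers that followed different courses below: Anxa2, which was lower in EGR1OV, Gdf15, which was lower in H/R, and Spp1, which was called in no comparison. They are RefSeq sequences on GRCm38.p6, written 5′ to 3′ on the strand of the gene and ending before the first annotated exon, at chr9:69453433-69453619 (187 bases, plus strand), chr8:70632457-70632706 (250 bases, minus strand) and chr5:104434861-104435110 (250 bases, plus strand). Capitals mark the motifs that were searched for.
Anxa2: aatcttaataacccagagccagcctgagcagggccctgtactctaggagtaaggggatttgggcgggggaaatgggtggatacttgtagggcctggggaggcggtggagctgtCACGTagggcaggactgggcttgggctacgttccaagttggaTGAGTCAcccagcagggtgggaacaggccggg
Gdf15: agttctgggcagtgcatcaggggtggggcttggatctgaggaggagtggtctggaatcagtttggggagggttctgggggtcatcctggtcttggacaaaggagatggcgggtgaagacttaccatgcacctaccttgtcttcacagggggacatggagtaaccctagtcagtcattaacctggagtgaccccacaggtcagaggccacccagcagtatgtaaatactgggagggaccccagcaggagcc
Spp1: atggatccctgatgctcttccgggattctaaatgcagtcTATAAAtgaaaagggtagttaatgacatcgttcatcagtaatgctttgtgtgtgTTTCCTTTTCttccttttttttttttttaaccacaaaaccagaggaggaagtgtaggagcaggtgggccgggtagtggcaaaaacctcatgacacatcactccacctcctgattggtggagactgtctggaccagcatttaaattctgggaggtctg
The capitals in Anxa2 are CACGT, the reverse complement of the hypoxia response element ACGTG, and TGAGTCA, an AP-1 motif of the form TGANTCA. Those in Spp1 are TATAAA, the letters of the TATA box, 211 to 206 bases before the start, and a match to the interferon-stimulated response element (ISRE). In the first Gdf15 window no searched motif was found.

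RefSeq starts were found by symbol for 7 of the 8 markers, all but Clu, with 11 windows of 250 bases between them. Both strands were searched for plain letters, and no match overlapped that of another motif. The EGR motifs GCGTGGGCG and GCGGGGGCG were in none of the 11 windows, against 0.536% and 2.57% of all 32851 RefSeq windows of that length. The C/EBP motif TTGCNNAA was in the window of Lcn2, 216 to 209 bases before its start, and also in those of Anxa1, of Spp1 (second start) and of Havcr1 (second start), against 9.56% of all windows. AP-1 letters were in 6.75% of all windows and in that of Anxa2 alone among the markers. The hypoxia response element was in 16.6% of all windows, and among the markers in those of Anxa2, Havcr1 (both later starts) and Gdf15 (second start). The heat shock element GAANNTTC was in the second Havcr1 window and in 6.69% of all windows. The letters of the TATA box were in the windows of Anxa1, Anxa2 and Spp1 and in 12.4% of all windows. They lay 32 to 27, 17 to 12 and 211 to 206 bases before the start in these 3 markers. The interferon-stimulated response element was in 2.98% of all windows. The cyclic AMP response element TGACGTCA (1.55% of all windows), the NF-kB motif (0.356%) and the C/EBP-ATF composite TGATGNAA (3.45%) were in no window of a marker. A match of letters is not evidence of a bound site, and a window without them says nothing of the factor.

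All 8 markers were expressed in untreated Sham cells. Clu was the highest at 1047 ± 10.7 FPKM (mean ± SD, n = 3), the 20th highest of the 13985 genes tested, those averaging 0.5 FPKM or more over the 9 libraries. Then followed Spp1 at 345 ± 3.36, Gdf15 at 334 ± 3.08, Anxa2 at 212 ± 7.84, Anxa1 at 175 ± 1.83, Lcn2 at 151 ± 4.58, Havcr1 at 115 ± 7.14 and Lgals3 at 35.0 ± 1.45. The ranges of neighbours in this order did not overlap. The order was the same in H/R. In EGR1OV the order was Clu, Lcn2, Spp1, Gdf15, Anxa1, Anxa2, Havcr1 and Lgals3, again with no overlap between neighbours. Lcn2 thus stood sixth among the markers in Sham and second in EGR1OV, and Anxa1 and Anxa2 changed places.

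**Figure D1:**
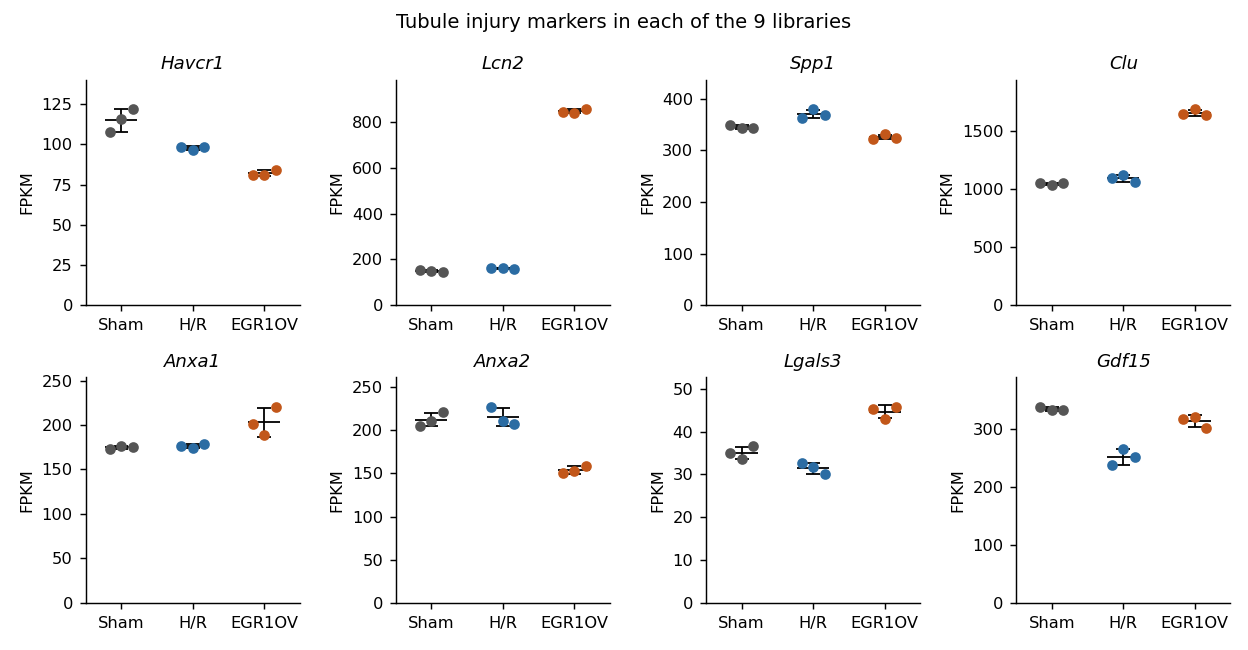
FPKM of the 8 markers (y axis, from 0, a separate scale for each gene) in the 9 libraries, with 3 points per group for Sham (grey), H/R (blue) and EGR1OV (orange); bars are the mean and SD. Lcn2 was at 840.2 to 858 FPKM in EGR1OV and at 147 to 163 in the other 6 libraries, and Gdf15 was lowest in H/R, at 238 to 264.

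The comparison of EGR1OV with Sham addresses which markers differ between cells that overexpress Egr1 and Sham cells. Lcn2 and Clu were higher and Havcr1 and Anxa2 were lower, so that 4 of the 8 markers were called, 2 in each direction. A gene was called here when limma gave a Benjamini-Hochberg adjusted p under 0.05 on log2(FPKM + 1) and the change was at least 1.3-fold. The same rule called 16.4% of all 13985 genes, with 9.87% higher and 6.51% lower. The adjusted p alone was under 0.05 for 7 markers, against 45.9% of all genes, and for 6 to 8 under 18 alternative settings. The libraries of both groups did not overlap for any of the 8, as for 55.7% of all genes. The median change of the markers was 0.07 on the log2 scale, beside 0.02 over all genes, and the median size of change was 0.40, beside 0.16. All genes here reach down to a mean of 0.5 FPKM, where this scale understates changes. The lowest marker, Lgals3, averaged 35.0 FPKM in Sham, so the sizes and shares are not matched for level.

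Lcn2 changed by far the most of the 8. It was at 156, 151 and 147 FPKM in Sham and at 845, 840.2 and 858 in EGR1OV. The 3 EGR1OV libraries, with a coefficient of variation of 1.06%, lay far above every Sham library. The log2 change was 2.48 ± 0.03 (SE), a ratio of means of 5.60, with a limma adjusted p of 1.38e-11, and it was the 122nd largest rise of all genes tested. The value behind it rests on 6368 to 6905 reads per Sham library and 36019 to 37856 per EGR1OV library.

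Clu, already the highest marker, rose further. It was at 1054, 1035 and 1053 FPKM in Sham and at 1647, 1691 and 1637 in EGR1OV, where it was the sixth most abundant gene of all those tested. Each EGR1OV library exceeded each Sham library by more than the range within either group. The log2 change was 0.66 ± 0.03 (SE), a ratio of 1.58, with a limma adjusted p of 7.58e-08. After quantile normalization, which gives the libraries a common set of values by rank, the log2 change was 1.18, with the call unchanged.

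Havcr1 and Anxa2 were lower in the transfected cells. Havcr1, the KIM-1 gene, was at 108, 116 and 122 FPKM in Sham and at 81.0, 80.8 and 84.1 in EGR1OV, a log2 change of -0.48 ± 0.04 (SE, limma adjusted p = 1.26e-05), so that the mean FPKM decreased by 28.8%. Anxa2 was at 205, 211 and 221 FPKM in Sham and at 150.2, 153 and 159 in EGR1OV, a log2 change of -0.46 ± 0.04 (SE, limma adjusted p = 1.77e-05). For both genes the highest EGR1OV library was under the lowest Sham library. Anxa2 protein pairs with the S100a10 protein in a complex on the inner face of the cell membrane, and S100a10 was also called lower (153 ± 1.75 to 113 ± 6.51 FPKM, adjusted p = 2.56e-05 by limma).

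The other 4 markers moved by less than the fold asked for. Lgals3 was at 34.9, 33.6 and 36.5 FPKM in Sham and at 45.2, 42.9 and 45.8 in EGR1OV. With a log2 change of 0.34 (95% confidence interval 0.24 to 0.43, limma adjusted p = 0.000151), a ratio of means of 1.27, it fell just short of the 1.3-fold limit. Anxa1 was at 173, 177 and 175 FPKM in Sham and at 201, 188 and 220.4 in EGR1OV, a log2 change of 0.21 (interval 0.10 to 0.32, adjusted p = 0.00559 by limma). Its EGR1OV libraries were the most spread of any marker in any group, with a coefficient of variation of 7.97% where the median gene over 5 FPKM had 3.88%. Spp1 was at 349, 344 and 343 FPKM in Sham and at 323, 331 and 325 in EGR1OV, a log2 change of -0.08 (interval -0.13 to -0.03, limma adjusted p = 0.020). That p was 0.050 to 0.434 under 6 of 18 alternatives, the highest after quantile normalization, and 3 of these left out the first Sham, the first EGR1OV or the third EGR1OV library. Gdf15 was at 338, 332 and 333 FPKM in Sham and at 317, 321 and 301 in EGR1OV, a log2 change of -0.09 (interval -0.18 to -0.01, limma adjusted p = 0.0798). Under 5 of 18 alternatives the adjusted p of Gdf15 was 0.0196 to 0.0471, and 2 of these left out the first or the second H/R library.

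Hypoxia and reoxygenation, the injury model itself, called 1 of the 8 markers, and that one was lower. Here the fold limit was 1.2, and 4.25% of all genes were called (1.60% higher and 2.65% lower). Gdf15 was at 338, 332 and 333 FPKM in Sham and at 238, 264 and 251 in H/R. Its log2 change was -0.41 ± 0.04 (SE), the mean FPKM having decreased by 24.8%, with a limma adjusted p of 0.000565, the 200th largest fall of all genes tested. All 3 H/R libraries lay under all 3 Sham libraries, and also under all 3 EGR1OV libraries.

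The classical marker Havcr1 was not higher after H/R. It was at 98.4, 96.5 and 98.1 FPKM in H/R against 108, 116 and 122 in Sham, a log2 change of -0.23 (95% interval -0.33 to -0.14, limma adjusted p = 0.00922), the mean having decreased by 15.2%, which is under the fold limit. Without the first Sham library, the lowest of its group, the change was -0.28 and Havcr1 was called lower. Lcn2 was at 162, 163 and 158 FPKM in H/R, all 3 above the highest Sham library at 156, with a log2 change of 0.09 (interval 0.03 to 0.15, adjusted p = 0.0681 by limma). Under 2 of 18 alternatives the adjusted p of Lcn2 was 0.0209 to 0.0441. Spp1 was at 364, 380.0 and 369 FPKM, a log2 change of 0.10 (interval 0.05 to 0.16, limma adjusted p = 0.0254), also above every Sham library but under the fold limit. That p was 0.0508 to 0.0860 under 9 of 18 alternatives, of which 5 left out 1 library, any of the 3 Sham libraries or the second or the third of H/R.

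The remaining 4 markers were not called between H/R and Sham. Clu was at 1100, 1121 and 1059 FPKM in H/R, a log2 change of 0.06 (interval 0.00 to 0.12, limma adjusted p = 0.181, but 0.0490 with median-ratio scaling). Lgals3 was at 32.7, 31.7 and 30.1 FPKM, a log2 change of -0.15 (interval -0.25 to -0.06, limma adjusted p = 0.0502, but 0.0299 to 0.0314 under 2 of 18 alternatives). Anxa1 was at 177, 174 and 178 FPKM (log2 change 0.01, interval -0.10 to 0.12), close to the range of Sham. Anxa2 was at 227, 210.4 and 207 FPKM (log2 change 0.02, interval -0.07 to 0.11), its libraries overlapping those of Sham, and the sign of that change turned when the first Sham or the first H/R library was left out. For the 8 markers the adjusted p alone was under 0.05 in 3 (2 to 5 under the 18 alternatives), against 11.7% of all genes, and the groups did not overlap in 6, against 33.6% of all genes. The median size of change was 0.10, beside 0.09 over all genes.

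**Figure D2:**
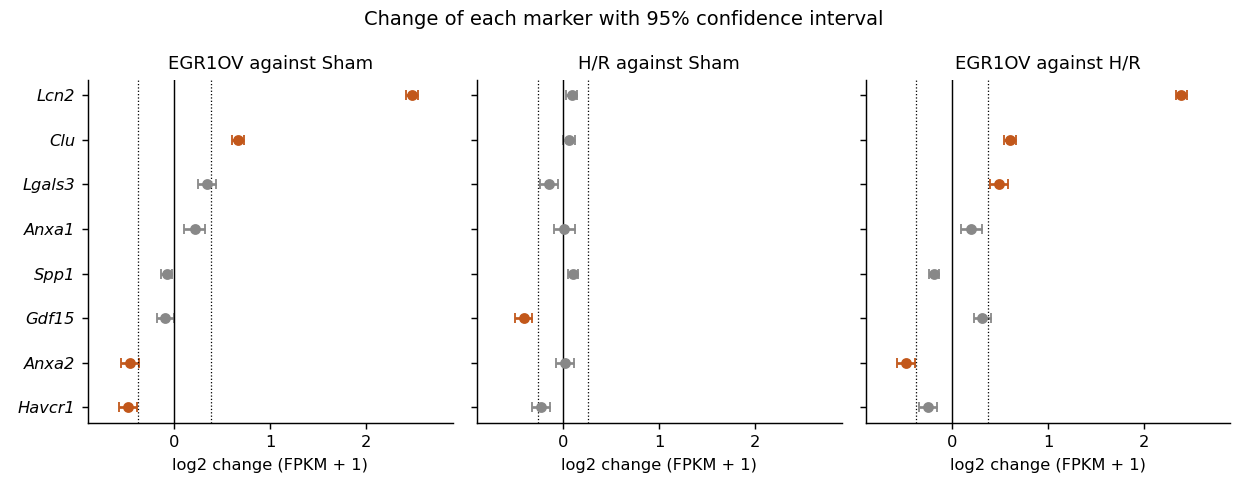
Log2 change of FPKM + 1 (x axis) for the 8 markers (rows) in 3 comparisons, with 95% confidence intervals from limma; orange points were called, grey points were not, and dotted lines mark the fold limit (1.3-fold, or 1.2-fold for H/R against Sham). Lcn2 lies at 2.48 and 2.39 in the comparisons of EGR1OV with Sham and with H/R, and at 0.09 in that of H/R with Sham.

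Set directly against H/R, the EGR1OV cells had higher Lcn2, Clu and Lgals3 and lower Anxa2, so that 4 of the 8 markers were called, against 18.9% of all genes (11.9% higher and 6.94% lower). The log2 change was 2.39 for Lcn2 (limma adjusted p = 1.72e-11), 0.60 for Clu (1.48e-07; 1.13 after quantile normalization), 0.49 for Lgals3 (1.17e-05) and -0.48 for Anxa2 (1.22e-05). Gdf15 was higher by 0.32 (limma adjusted p = 0.000137), a ratio of 1.25 that is under the limit of 1.3. Havcr1 at -0.25, Spp1 at -0.18 and Anxa1 at 0.20 had limma adjusted p of 0.000799, 0.000170 and 0.00652 and were under the fold limit too. The adjusted p alone was under 0.05 for all 8 (7 with median-ratio scaling, where Anxa1 had 0.0553), against 51.0% of all genes, and no marker's libraries overlapped between these groups, against 58.6% of all genes.

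The wider injury and repair programme, a list of 35 genes that holds cytokines, adhesion molecules, keratins and early stress factors, had 32 genes above the low limit. Against Sham, 12 were called higher and 4 lower in EGR1OV (9.87% and 6.51% of all genes). In H/R, 7 were called higher and 2 lower (1.60% and 2.65% of all genes). The median change was 0.20 in EGR1OV and 0.06 in H/R, beside 0.02 and -0.03 over all genes. The largest rises in EGR1OV were those of Ccl2, which attracts monocytes, from 4.09 ± 0.52 to 132 ± 10.2 FPKM, of the complement component C3 from 0.496 ± 0.079 to 28.03 ± 0.89, and of Cxcl1, which attracts neutrophils, from 0.593 ± 0.18 to 29.6 ± 3.18. Their limma adjusted p were 4.08e-10, 3.88e-11 and 3.19e-09.

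In H/R the largest of the called changes were smaller. Ccl2 was at 6.72 ± 0.84 FPKM (log2 change 0.60, limma adjusted p = 0.00595). The adhesion molecule Vcam1 rose from 2.51 to 4.10 FPKM (0.54, limma adjusted p = 0.000209). Cd44, the hyaluronan receptor that also binds osteopontin, rose from 79.2 to 106 FPKM (0.42, limma adjusted p = 0.000451). Vcam1 and Cd44 were called higher in EGR1OV against Sham too, at 10.3 FPKM (log2 change 1.68) and 115 FPKM (0.53). Against H/R, Vcam1 was called higher in EGR1OV and Cd44 was not called. The 4 listed genes called lower in EGR1OV were the keratins Krt8, Krt18 and Krt19 and the doublecortin family gene Dcdc2a, with log2 changes of -0.71, -0.73, -0.92 and -0.47. The 2 called lower in H/R were Atf3 (-0.42) and Hmox1, the heme oxygenase (-0.35). In EGR1OV the same genes were called higher, Atf3 by 1.22 and Hmox1 by 1.69. Between EGR1OV and H/R, 10 genes of the list were called higher and 6 lower (11.9% and 6.94% of all genes).

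Of the other proteins proposed as urinary biomarkers, 7 of 13 genes in the table passed the low limit. In EGR1OV 3 were called higher and none lower against Sham (9.87% and 6.51% of all genes). B2m, the light chain of MHC class I, rose from 435 ± 6.75 to 2544 ± 89.2 FPKM (log2 change 2.54, limma adjusted p = 2.54e-11), and the cytokine gene Il18 rose from 1.36 ± 0.32 to 3.97 ± 0.54 (adjusted p = 3.83e-05). Gstp1 went from 6.72 ± 3.12 to 16.8 ± 9.58 FPKM (adjusted p = 0.0461), a gene with a near-identical copy, Gstp2, whose reads may be split between them. The Gstp1 values of both groups overlapped, and the call was lost under 12 of 18 alternatives (adjusted p 0.0503 to 0.146), of which 6 left out the first or the third Sham, the second or the third H/R, or the second or the third EGR1OV library. Without the second EGR1OV library the log2 change was 0.73. After H/R limma called none of the 7, with 2 at an unadjusted p under 0.05 (28.0% of all genes) and 0 calls by voom on the recovered reads (7.16% of all genes). Against H/R, EGR1OV had B2m and Il18 higher.

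**Figure D3:**
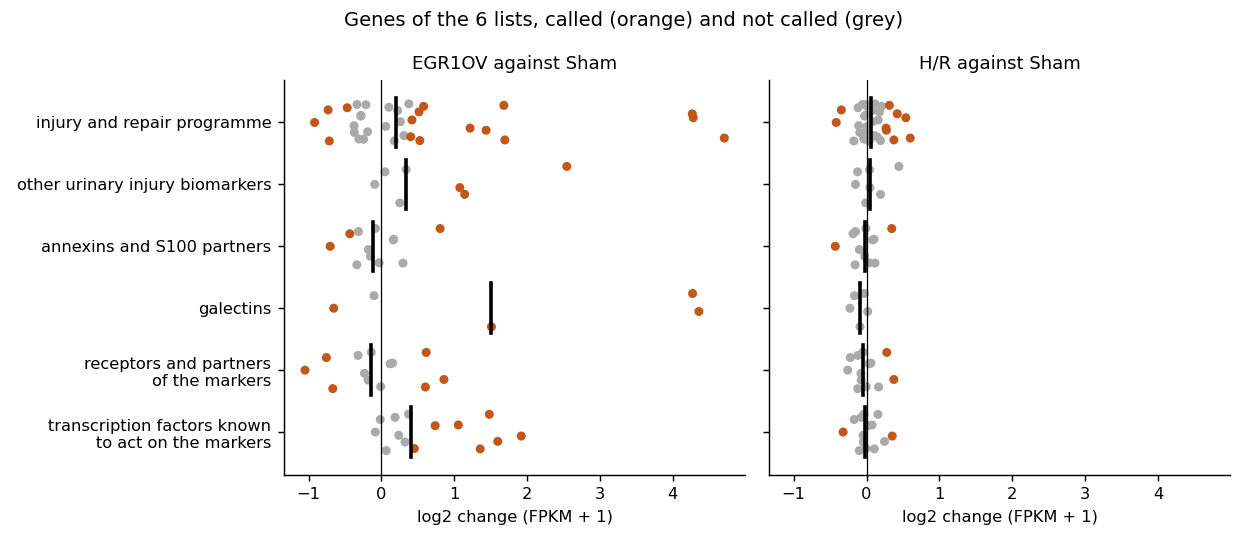
Log2 change of FPKM + 1 (x axis) of every tested gene in 6 lists (rows) in EGR1OV against Sham (left) and H/R against Sham (right); each point is a gene, orange where called and grey where not, spread vertically for sight only, and the black bar is the list's median. The galectin list has its median at 1.51 on the left and at -0.09 on the right.

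The annexin and galectin markers were set beside their families. Among 12 other annexins and S100 partners tested, 1 was called higher and 2 lower in EGR1OV against Sham (9.87% and 6.51% of all genes). Their median change was -0.12, beside 0.02 over all genes. The called genes were Anxa8, which rose from 1.89 ± 0.27 to 4.04 ± 0.41 FPKM (limma adjusted p = 8.81e-05), S100a10, described above, and S100a6, which fell from 480.0 ± 33.3 to 294 ± 11.5 FPKM (adjusted p = 8.52e-06). After H/R, Anxa8 was called higher at 2.67 ± 0.29 FPKM (adjusted p = 0.0422, but 0.0512 to 0.116 under 10 of 17 alternatives, among them leaving out any Sham library, the first or the third of H/R or the third of EGR1OV) and Anxa9 was called lower, from 1.21 to 0.641 FPKM. Against H/R, Anxa8 was called higher in EGR1OV and Anxa5, S100a10 and S100a6 lower.

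Of the 5 other galectin-list genes tested, 3 were called higher and 1 lower in EGR1OV against Sham (9.87% and 6.51% of all genes). Lgals9, which encodes a galectin with a pair of carbohydrate-binding domains, went from 4.58 ± 0.034 to 113 ± 4.01 FPKM (log2 change 4.36, limma adjusted p = 1.80e-10). Lgals3bp, which encodes a secreted glycoprotein that binds galectin-3, went from 17.1 ± 2.26 to 346 ± 4.95 (4.27, adjusted p = 2.74e-10). Lgals8 went from 14.0 ± 0.82 to 41.6 ± 0.45 (1.51, adjusted p = 2.42e-09). Lgals1 was called lower, from 1045 to 663 FPKM (-0.65, adjusted p = 3.37e-06). The same 3 genes were called higher and Lgals1 lower against H/R (11.9% and 6.94% of all genes). Between H/R and Sham limma called none of the 5, with 2 at an unadjusted p under 0.05 (28.0% of all genes). There were 0 calls by voom on the recovered reads (7.16% of all genes). The change of Lgals3 itself, 0.34, was under that of the 3 that rose.

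**Figure D4:**
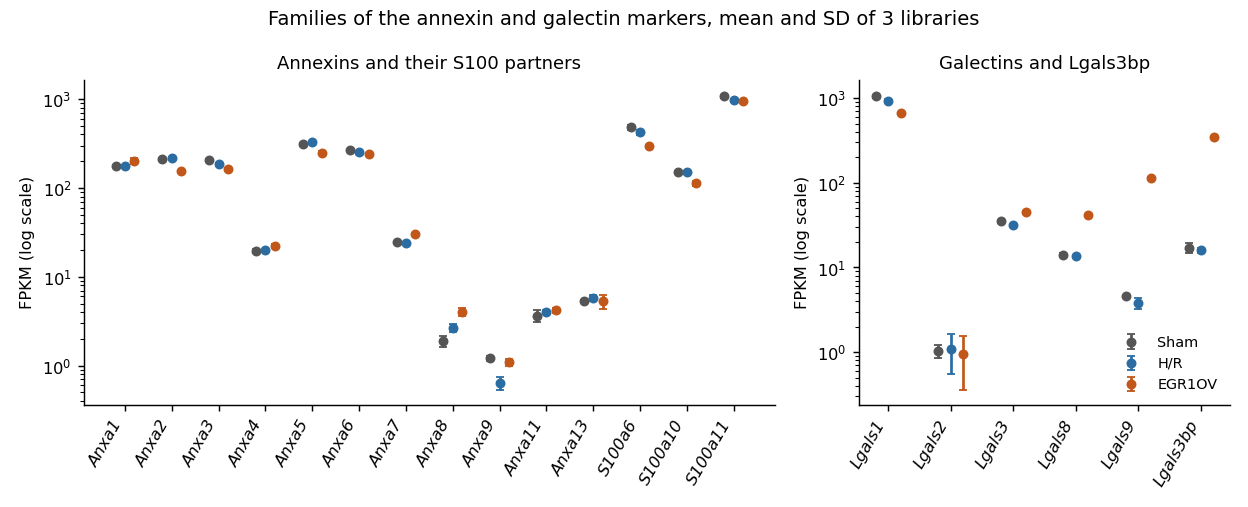
Mean FPKM on a log scale (y axis; bars are the SD of 3 libraries) of the tested annexins and S100 partners (left) and of the galectins and Lgals3bp (right), for Sham (grey), H/R (blue) and EGR1OV (orange). Anxa2, S100a6 and S100a10 are lowest in EGR1OV, and Lgals9 and Lgals3bp reach 113 and 346 FPKM there.

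The receptors and binding partners of the markers had 13 genes tested of 22 in the table. In EGR1OV 3 were called higher and 3 lower against Sham (9.87% and 6.51% of all genes). Itgb5, an integrin subunit that binds osteopontin, rose from 54.9 ± 0.36 to 84.1 ± 5.39 FPKM (limma adjusted p = 3.28e-06). Mmp9, a gelatinase whose human protein is found in a complex with human NGAL, rose from 54.1 ± 1.98 to 83.4 ± 2.84 FPKM (limma adjusted p = 6.98e-06). Fpr1, a formyl peptide receptor of annexin A1, was at 0.210 FPKM in Sham and at 1.197 in EGR1OV and was called higher as well. Its mean over the 9 libraries, 0.536 FPKM, was just above the low limit of 0.5. Only the EGR1OV mean exceeded that limit, so Fpr1 was tested because of the group in which it was called higher. The same holds for its call against H/R, given below. Lrp2, or megalin, the endocytic receptor that takes up NGAL and clusterin, fell from 3.60 ± 0.08 to 1.22 ± 0.05 FPKM (log2 change -1.05, adjusted p = 1.01e-07). Timd4, a phosphatidylserine receptor of the family of KIM-1, went from 0.839 to 0.0829 FPKM, and the osteopontin receptor gene Itga9 from 0.990 to 0.253, both called lower at levels near the low limit.

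In H/R the integrin genes Itgav and Itga5 were the 2 partners called, both higher (1.60% of all genes were called higher). Itgav rose from 57.6 ± 0.85 to 75.0 ± 4.21 FPKM and Itga5 from 134 ± 1.12 to 163 ± 5.95 (limma adjusted p = 0.00115 and 0.00114). Without the first H/R library Itga5 was no longer past the 1.2-fold limit, with a log2 change of 0.25. Between EGR1OV and H/R, Itgb5, Mmp9 and Fpr1 were called higher and Itgav, Itga5, Itga9, Lrp2 and Timd4 lower (11.9% and 6.94% of all genes).

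All 14 transcription factors listed as known to act on the markers were tested. Against Sham, 7 were called higher and none lower in EGR1OV (9.87% and 6.51% of all genes). Their median change was 0.41, beside 0.02 over all genes. The C/EBP factors Cebpb and Cebpd rose from 2.13 ± 0.67 to 10.8 ± 2.22 and from 1.80 ± 0.29 to 7.45 ± 0.73 FPKM (limma adjusted p = 2.22e-05 and 1.59e-06). Ddit3, the CHOP gene of the endoplasmic reticulum stress response, rose from 23.3 ± 0.69 to 66.8 ± 1.94 (adjusted p = 2.60e-09). After H/R, Ddit3 was called lower at 18.4 ± 0.85 FPKM (adjusted p = 0.00189) and Runx1, a factor of epithelial repair and blood development, was called higher, from 9.62 ± 0.41 to 12.6 ± 1.06 (adjusted p = 0.0125). Against H/R, 6 were called higher in EGR1OV, and Runx1 was the 1 called lower (11.9% and 6.94% of all genes).

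Markers of other cell types moved as well. Macrophages can express several of the 8 injury markers too, among them Spp1, Lgals3, Anxa1 and Gdf15. The summed FPKM of 12 macrophage and leukocyte markers was 149 to 156 in Sham, 126 to 133 in H/R and 40.4 to 47.8 in EGR1OV. Of 9 tested, 8 were called lower and 1, Cd14, higher in EGR1OV against Sham (6.51% and 9.87% of all genes). Lyz2, the lysozyme gene, ranged over 55.8 to 58.6 FPKM in Sham, with 44.8 to 48.8 after H/R and 5.02 to 6.13 after transfection. C1qa was at 30.3 to 32.5, 25.3 to 27.2 and 4.18 to 4.69 in the same order, and Csf1r was at 5.66 to 6.57, 5.62 to 6.32 and 1.73 to 2.07. H/R against Sham had 2 of the 9 called lower (2.65% of all genes). Ptprc and Itgam had means under 0.5 FPKM. The part of such cells in the values of the markers was not tested, and in these bulk libraries fewer cells of a type and less RNA per cell cannot be told apart.

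Among the epithelial markers, the keratin gene Krt8 was at 1003 to 1026 FPKM for Sham, 915 to 966 for H/R and 581 to 656 for EGR1OV, and Krt18 was at 669.9 to 696, 589 to 625 and 398 to 429 in the same order. Epcam, which encodes an epithelial adhesion molecule, was called higher in both groups against Sham, at 75.4 to 77.1 FPKM for Sham, 94.6 to 97.1 for H/R and 97.2 to 105 for EGR1OV. The proximal tubule sum was 159 to 171 FPKM for Sham, 157 to 171 for H/R and 182 to 189 for EGR1OV and came nearly all from Gpx3, while Lrp2 and Aqp1 were called lower in EGR1OV. The summed fibroblast markers, led by Col1a1, were at 25.7 to 26.9, 29.8 to 31.3 and 28.1 to 32.4 FPKM in Sham, H/R and EGR1OV. Endothelial markers summed to 9.74 to 10.3, 10.1 to 10.3 and 7.04 to 7.61, podocyte markers to 8.89 to 9.64, 10.4 to 12.5 and 10.4 to 10.9, and urothelial and basal markers to no more than 1.12. Their part in the results was not tested either.

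For each marker the genes with the most similar course over the 9 libraries were sought among 7171 protein-coding genes of at least 5 FPKM, as the smallest root mean square distance between log2(FPKM + 1) values, each gene taken relative to its own Sham mean. Lcn2 was closest to Plekhs1 (distance 0.049) and B2m (0.057), and 6 genes lay within 0.1 of it. Plekhs1 was at 10.9 FPKM in Sham, 11.9 after H/R and 63.5 after transfection. Gdf15 was closest to Ift27 (0.040), at 14.0 FPKM in Sham with 10.6 after H/R and 12.97 after transfection, and to Ypel3 (0.068), with 32 genes within 0.1. Havcr1 was closest to Dcun1d4 (0.046) and Mrps21 (0.047), Clu to Tbrg1 (0.028) and Aebp1 (0.037), Anxa2 to Cotl1 (0.031), and Lgals3 to Wdr24 (0.044) and Hoxb7 (0.045), with 65, 101, 198 and 363 genes within 0.1. Spp1 (Iqgap1 at 0.020 and Dag1 at 0.020) and Anxa1 (Wwp2 at 0.024 and Snx9 at 0.031) had 1206 and 1053 genes within that distance. These distances are descriptions over libraries that share their preparation, with no test.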

How the data were processed

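RNA from primary renal tubular epithelial cells of C57BL/6 mouse kidney was sequenced on an Illumina NovaSeq instrument in 3 groups of 3 libraries. The authors deposited 1 table of FPKM values per gene and library, normalised by them for exon length and depth. The submitters' processing notes name HISAT2 2.1.0, Bowtie2 2.2.3, TopHat2 and mm9 without roles, whereas 94.6% of the gene positions are equal to those of GENCODE M21 on GRCm38. Depths were worked back from FPKM steps with M21 exon lengths (94.0% of 162958 low values came out whole within 0.02 reads). The reads of Anxa1 did not come out whole and are not given.

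The 13985 genes that averaged 0.5 FPKM or more were tested with limma 3.58.1 in R 4.3.3, with a trended variance over all 9 libraries, on log2(FPKM + 1), two-sided, with Benjamini-Hochberg adjustment. Fold changes on this scale understate those of low genes. A call needed both an adjusted p below 0.05 and a 1.3-fold change (1.2-fold for H/R against Sham). The limits against Sham are those of the study, and the study gives none for EGR1OV against H/R, where 1.3-fold was used. limma was used since FPKM are not counts. Groups were taken from the labels. Intervals are 95% confidence intervals of limma and cover the spread between libraries only.

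The markers and gene lists were chosen with earlier results of these data known. From each pathway list the text names up to 3 called genes per comparison with the largest changes and a mean of at least 1 FPKM. From the cell type lists it names some genes with high means or called changes, not by a fixed rule. Krt8, Krt18, Krt19, Dcdc2a, Atf3, Hmox1, Anxa5, Anxa9, Lgals1, Fpr1, Timd4, Itga9, Slc34a1, Slc22a6, Ptprc, Itgam and Gm23935, the calls of Itgav, Itga5 and Runx1 against H/R, and the stretches before the starts of Anxa2, Gdf15 and Spp1 were named after their values were seen. The EGR1OV values of Vcam1 and Cd44 were also named after they were seen. Ccn1 and Ccn2 stand in the table under older symbols. Tff3, Fpr3, Slc22a8, Aqp2, Cd3e and Upk3a were not analysed here. A few further list and neighbour genes are not reported here. Alternatives were another pseudocount (0.1), other limits on low values, median-ratio and quantile scaling, voom on the recovered reads, no variance trend, a replicate block, only the groups compared, other fold limits and each library left out.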

Additional observations from a re-analysis of the deposited data

How the results depend on the processing

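The calls of the 8 markers changed under 1 of 18 alternatives of the fit. Without the first Sham library, Havcr1 was called lower in H/R as well, so that leaving out 1 library gave 1 to 2 markers called for H/R against Sham and 4 in every case for both other comparisons. With no fold limit, 7, 3 and 8 markers passed the adjusted p in EGR1OV against Sham, H/R against Sham and EGR1OV against H/R. Of all genes, 45.9%, 11.7% and 51.0% did. The marker counts ranged over 6 to 8, 2 to 5 and 7 to 8 under the 18 alternatives. With a 2-fold limit 1, 0 and 1 markers passed, and the share of all genes at that limit was not worked out. At an unadjusted p under 0.05, limma had 5 of the 8 for H/R against Sham (28.0% of all genes), and voom called 1 (7.16% of all genes). The change of Anxa2 between H/R and Sham turned to -0.0051 without the first Sham library and to -0.021 without the first H/R library, within a range of -0.021 to 0.047 with 1 library left out. Of the genes in the 6 pathway lists (83 tested), 39, 15 and 41 were called (16.4%, 4.25% and 18.9% of all genes). With 1 library left out these counts ranged over 38 to 42, 11 to 15 and 40 to 45. They became 69, 28 and 65 with no fold limit (45.9%, 11.7% and 51.0% of all genes). With a 2-fold limit they became 19, 0 and 17, again without a share of all genes to set beside them. For H/R against Sham, 43 of the 83 had an unadjusted p under 0.05 by limma (28.0% of all genes) and 17 were called by voom (7.16% of all genes). The alternatives were followed gene by gene only for the up to 3 called genes per pathway list and comparison chosen by size of change. Of their values, 741 kept their call and 24 lost it, with no change of direction. Most of the losses were for Anxa8 in H/R and Gstp1 in EGR1OV. The calls of the other named list genes were not followed singly.

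The replicate numbers were not used as pairs, since deviations of same-numbered libraries correlated from -0.20 to 0.26 and 3 of 9 libraries were closest to their own number. With the replicate block, 4, 1 and 4 markers and 38, 14 and 41 list genes were called, and no marker's call changed. Over all genes, the share of calls that were higher was 60.3%, 37.7% and 63.2% in the 3 comparisons, 54.9%, 58.2% and 51.0% with median-ratio scaling and 45.9%, 56.5% and 42.5% with quantile normalization. The cause was not tested.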
